A study of Mus musculus with 8 samples.

Results

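The FGF receptors Fgfr1, Fgfr2 and Fgfr3 and 7 genes that report on FGF signalling (Spry1, Spry2, Spry4, Dusp6, Etv1, Etv4 and Etv5) were followed library by library by RNA-seq of polyA RNA from the mouse vagal region at embryonic day 9.5. They were chosen by symbol as 10 of the 55421 genes of the table, and all 10 were among the 15717 genes tested. The mutant group, called trex, held 4 libraries with the genotype Rdh10(trex/trex), and the other group held 4 wild type libraries, labelled wt. Rdh10 encodes the enzyme that starts the synthesis of retinoic acid from retinol. The vagal region is the level of somites 1 to 7, and the series compares its gene expression between the genotypes. All samples were of that stage, and the labels name no further allele and no agent. Whether each sample was 1 embryo or a pool, whether litters differed and which strain was used are not labelled. The p-values therefore rest on the spread among these samples, part of which may be technical. The titles number the wt samples 5 to 8, and the replicate label, used here, numbers them 1 to 4 in the same order.

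FGFs are secreted proteins that bind receptor tyrosine kinases together with heparan sulfate. The receptors signal through Ras, Raf, MEK and ERK, and active ERK raises transcription of the PEA3 group of ETS factors (Etv1, Etv4 and Etv5) and of inhibitors that restrain the same cascade. Sprouty proteins (Spry1, Spry2 and Spry4) act on the steps between receptor and ERK, and Dusp6 is a phosphatase that removes phosphate from ERK. In the embryo these transcripts are widely used as readouts of FGF signalling, which works against retinoic acid along the body axis and takes part in pharyngeal, otic and cardiac development.

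Promoter windows, from 250 bases before to 50 bases after an annotated start, were taken from RefSeq (GRCm38.p6) for 7 of the 10 genes, which had 10 windows. The windows below belong to the feedback genes that stood highest in trex replicate 1 (Dusp6, Spry1 and Spry2) and to Fgfr2, the receptor with the smallest p. They lie at chr10:99262981-99263280 on the plus strand, chr3:37639697-37639996 on the plus strand, chr14:105896770-105897069 on the minus strand and chr7:130266759-130267058 on the minus strand. Sequences run 5′ to 3′, and capitals mark CGGAA or its reverse complement TTCCG, part of the site that many ETS factors bind.
Dusp6: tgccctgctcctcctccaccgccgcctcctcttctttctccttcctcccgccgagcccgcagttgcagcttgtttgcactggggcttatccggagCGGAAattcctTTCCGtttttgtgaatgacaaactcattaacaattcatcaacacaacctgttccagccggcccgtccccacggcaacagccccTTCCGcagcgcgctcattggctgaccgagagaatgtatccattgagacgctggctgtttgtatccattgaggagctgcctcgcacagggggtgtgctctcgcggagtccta
Spry1: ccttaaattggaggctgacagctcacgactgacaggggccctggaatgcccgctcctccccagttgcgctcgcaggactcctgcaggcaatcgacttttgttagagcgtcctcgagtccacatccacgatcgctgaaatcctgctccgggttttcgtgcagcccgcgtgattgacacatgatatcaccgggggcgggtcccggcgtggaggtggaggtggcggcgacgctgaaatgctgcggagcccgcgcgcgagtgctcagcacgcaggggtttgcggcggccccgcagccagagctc
Spry2: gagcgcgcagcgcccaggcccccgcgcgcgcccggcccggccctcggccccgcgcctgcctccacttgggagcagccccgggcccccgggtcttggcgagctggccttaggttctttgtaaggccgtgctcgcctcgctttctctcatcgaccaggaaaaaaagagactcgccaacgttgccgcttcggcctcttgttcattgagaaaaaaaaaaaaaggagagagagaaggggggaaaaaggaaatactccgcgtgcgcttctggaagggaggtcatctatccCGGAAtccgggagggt
Fgfr2: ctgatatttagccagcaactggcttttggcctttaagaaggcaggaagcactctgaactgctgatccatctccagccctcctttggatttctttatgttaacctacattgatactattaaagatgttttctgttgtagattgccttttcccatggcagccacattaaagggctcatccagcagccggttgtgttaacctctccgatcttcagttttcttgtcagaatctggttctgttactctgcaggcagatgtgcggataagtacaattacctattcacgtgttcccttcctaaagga
The Dusp6 window held 3 matches and the Spry2 window 1, while the Spry1 and Fgfr2 windows and the 6 windows of Fgfr3, Etv1 and Etv5 held none. Of 32851 such windows in the table, 29.9% held at least 1 match on either strand and 3.6% held at least 3. AGGTCA, a 6-letter core of sites bound by retinoic acid receptors, was found on either strand in the Spry2 window alone among the 10, against 16.3% of all windows, and did not overlap the match to CGGAA. A match is a string of letters and does not show binding.

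Recovered depth was between 20928981 and 23648646 reads per library. Rdh10 itself stood at 106.0, 66.2, 62.7 and 69.0 TPM (transcript abundance scaled by gene length and by library) in trex replicates 1 to 4, against 36.3 to 41.0 TPM in wt, a log2 difference of 0.92 (adjusted p = 0.0126 in limma), with every trex library above every wt library. All markers listed for the tissues of this region were detected in at least 1 library. Heart markers (6 genes) summed to 115 to 1308 TPM in trex and 82.6 to 1260 TPM in wt. Liver markers (8 genes) summed to 5.05, 25.5, 223 and 451 TPM in trex replicates 1 to 4. In wt replicates 1 to 4 they summed to 2.72, 2.10, 147 and 167 TPM. In both groups the liver sums were lower in replicates 1 and 2 than in replicates 3 and 4. Hox genes of groups 6 to 9 (12 genes, 11 tested) summed to 501 to 646 TPM in trex and 94.8 to 248 TPM in wt. Of the Hox genes 6 were called higher, against 4.94% of all tested genes, and the median log2 difference was 2.13. Their part in the results here was not tested. Trex replicate 1 stood apart. It was the highest of the 8 libraries for 38.2% of tested genes and the lowest for 23.1%, while no other library was the highest for more than 14.7%. For each of the 10 genes the difference is given with and without it.

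None of the 10 genes passed the test for a genotype difference run across all genes, limma on log2(TPM + 1) with Benjamini-Hochberg adjustment and a threshold of 0.05. Of all tested genes 8.71% were called, 4.94% as higher and 3.77% as lower in trex. At an unadjusted p below 0.05 there was 1 of the 10, Fgfr2, where the background was 29%, and limma voom on recovered reads called 0, where it called 9.61% of tested genes. The median difference of the 10 genes was 0.11 on the log2 scale and that of all tested genes 0.04. The 4 trex values and the 4 wt values did not overlap for 2 of the 10 genes (Fgfr1 and Fgfr2), a share near the 21.8% seen over all tested genes. A missed threshold does not show equal levels, so the intervals are given with each gene. In bulk tissue, fewer cells of a type and less RNA per cell cannot be told apart.

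**Figure D1:**
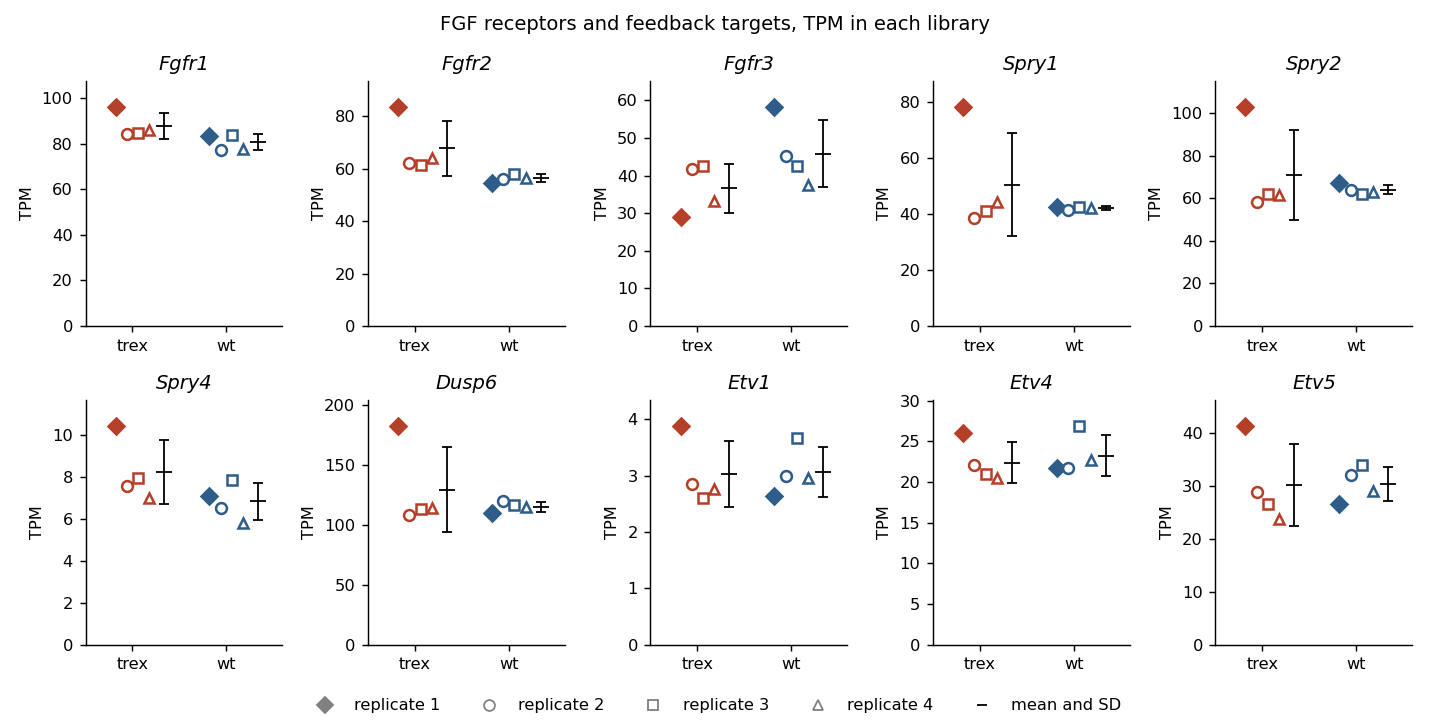
TPM of each of the 10 genes in the 4 trex libraries (red, left) and the 4 wt libraries (blue, right), with 1 symbol per replicate number and the mean and SD beside each group; each panel starts at 0. Trex replicate 1 (filled red diamond) is the highest of the 8 libraries for 8 genes and the lowest for Fgfr3.

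Of the receptors, Fgfr1 and Fgfr2 ran slightly above wt and Fgfr3 below it. Fgfr1 (ENSMUSG00000031565, chromosome 8, 25513654 to 25575718, mm10) encodes the receptor used most widely in mesenchyme and early mesoderm. It stood at 96.1, 84.45, 84.8 and 86.2 TPM in trex replicates 1 to 4, against 83.7, 77.55, 84.04 and 77.9 TPM in wt replicates 1 to 4. The groups were separated by less than 1 TPM. The log2 difference was 0.12 ± 0.06 (SE, 95% interval -0.01 to 0.25, adjusted p = 0.201 in limma). An exact two-sided permutation test of Fgfr1 alone gave p = 0.0286, the smallest that 4 against 4 allows. Without trex replicate 1 the difference of Fgfr1 was 0.08 ± 0.04 (adjusted p = 0.287). Its groups overlapped after each of 3 other scalings of the columns.

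Fgfr2 (ENSMUSG00000030849, chromosome 7, 130162451 to 133123350), whose product is used mainly in epithelia, showed the smallest p of the 10 genes. Its annotated span, introns included, overlaps 69 other genes, so some of its reads may not be its own. Whether exons overlap was not examined. It stood at 83.4, 62.1, 61.55 and 64.1 TPM in trex, against 54.6, 56.1, 58.1 and 56.6 TPM in wt. Every trex library lay above every wt library, and trex replicate 1 lay well above the other 3. The trex mean was 67.8 ± 10.5 TPM, against a wt mean of 56.4 ± 1.45 TPM (± SD of 4 libraries, here and below), which is 1.20-fold. Its log2 difference was 0.25 ± 0.09 (95% interval 0.04 to 0.46), adjusted p = 0.121 in limma, and the exact test gave p = 0.0286. Without trex replicate 1 the log2 difference fell to 0.15 ± 0.04 with an adjusted p of 0.0476, past the threshold, where 10.5% of tested genes were called. With array weights, which give trex replicate 1 the smallest weight, the adjusted p was 0.0302 where 35.1% were called, and over all alternatives it ranged from 0.0302 to 0.318.

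Fgfr3 (ENSMUSG00000054252, chromosome 5, 33721674 to 33737068) is a receptor gene of the ventricular zone of the neural tube. It stood at 29.04, 41.8, 42.5 and 33.2 TPM in trex, against 58.2, 45.3, 42.45 and 37.4 TPM in wt. The groups overlapped, with the lowest wt library below 2 of the trex libraries. The log2 difference was -0.31 ± 0.16 (95% interval -0.67 to 0.04, adjusted p = 0.222 in limma, exact p = 0.171), and -0.21 ± 0.15 without trex replicate 1 (adjusted p = 0.396). Neural tube progenitor markers (8 genes, 3 of them called lower and none higher) summed to 392, 438, 359 and 315.5 TPM in trex, against 530, 499, 473 and 452 TPM in wt. Neuron markers (6 genes, all called lower) summed to 41.5, 143, 141 and 107 TPM in trex, against 525, 514, 338 and 303 TPM in wt. Over all tested genes 3.77% were called lower. Trex replicate 4 had the lowest progenitor sum and trex replicate 1 the lowest neuron sum. In wt the neuron sums, the progenitor sums and Fgfr3 ranked the 4 libraries in 1 order, while in trex their orders differed. The progenitor sum of trex replicate 1 was above those of trex replicates 3 and 4, while its Fgfr3 was the lowest. In both genotypes the library with the lowest neuron sum had the lowest Fgfr3. The part of tissue makeup in the Fgfr3 values was not tested.

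Each receptor was also taken as a share of the receptor pool. Over Fgfr1, Fgfr2, Fgfr3 and Fgfr4 together, the summed level was 196.0 ± 11.1 TPM in trex and 188.6 ± 10.2 TPM in wt. Fgfr1 made up 44.0% to 45.8% of it in trex and 41.55% to 43.9% in wt. Fgfr2 made up 31.9% to 39.3% in trex and 27.1% to 31.9% in wt, and Fgfr3 13.7% to 22.05% in trex and 21.03% to 28.9% in wt. The ratio of Fgfr2 to Fgfr3 was 2.87, 1.49, 1.45 and 1.93 in trex, against 0.939, 1.24, 1.37 and 1.515 in wt. The 2 groups of ratios overlapped between 1.45 and 1.515, and trex replicate 1 had the highest ratio. Fgfr4 contributed least, at most 3.56% in any library. These shares were chosen after their values were seen and carry no test.

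Spry1, Spry2 and Dusp6 held nearly the same level in 7 of the 8 libraries and a higher one in trex replicate 1, while Spry4 varied more among the 7. Dusp6 (ENSMUSG00000019960, chromosome 10, 99263231 to 99267489) was the most abundant of the 10 genes. It stood at 182.8, 108.4, 112.9 and 113.7 TPM in trex, against 110.1, 120.2, 116.5 and 114.6 TPM in wt. The 3 other trex libraries lay within or just below the wt range. Dusp6 differed by 0.13 ± 0.15 on the log2 scale (95% interval -0.21 to 0.48, adjusted p = 0.59 in limma), and without trex replicate 1 it was -0.05 ± 0.04 (adjusted p = 0.496).

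Spry1 (ENSMUSG00000037211, chromosome 3, 37639947 to 37644598) had the tightest wt values of the 10 genes. It stood at 78.03, 38.6, 41.0 and 44.25 TPM in trex, against 42.4, 41.2, 42.6 and 42.1 TPM in wt. The coefficient of variation was 36.7% in trex and 1.42% in wt. Spry1 differed by 0.20 ± 0.19 on the log2 scale (95% interval -0.24 to 0.64, adjusted p = 0.517 in limma), and -0.03 ± 0.05 without trex replicate 1 (adjusted p = 0.766).

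Spry2 (ENSMUSG00000022114, chromosome 14, 105891947 to 105896819), the Sprouty gene with the highest level, followed the same pattern. It stood at 102.8, 58.2, 61.9 and 61.45 TPM in trex, against 67.2, 63.97, 62.1 and 62.9 TPM in wt. Without trex replicate 1 every trex library lay below every wt library, by less than 1 TPM at the nearest pair. Spry2 differed by 0.11 ± 0.16 on the log2 scale (95% interval -0.26 to 0.48, adjusted p = 0.679 in limma) with all libraries and -0.08 ± 0.04 (adjusted p = 0.267) without that one.

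Spry4 (ENSMUSG00000024427, chromosome 18, 38586247 to 38601415) was the weakest of the Sprouty genes. It stood at 10.5, 7.60, 7.97 and 6.985 TPM in trex, against 7.12, 6.53, 7.89 and 5.83 TPM in wt, and the groups overlapped. With 161 to 287 reads per library, its counting error alone was up to 7.88%. Spry4 differed by 0.23 ± 0.14 on the log2 scale (95% interval -0.08 to 0.54, adjusted p = 0.288 in limma), and by 0.12 ± 0.11 without trex replicate 1 (adjusted p = 0.495).

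Taking Spry1, Spry2, Spry4 and Dusp6 together, the summed level was 374, 213, 224 and 226 TPM in trex, against 227, 232, 229 and 225.5 TPM in wt. The wt libraries spanned less than 7 TPM.

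None of the PEA3 group factors was called, and their differences were smaller than their standard errors. Etv5 (ENSMUSG00000013089, chromosome 16, 22381309 to 22439719) stood at 41.4, 28.8, 26.5 and 23.8 TPM in trex, against 26.55, 32.1, 33.9 and 28.9 TPM in wt. Trex replicate 1 was the highest library and trex replicate 4 the lowest. Etv5 differed by -0.04 ± 0.16 on the log2 scale (95% interval -0.40 to 0.32, adjusted p = 0.896 in limma), and -0.20 ± 0.10 without trex replicate 1 (adjusted p = 0.231).

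Etv4 (ENSMUSG00000017724, chromosome 11, 101769742 to 101785371) stood at 26.1, 22.1, 20.95 and 20.5 TPM in trex, against 21.7, 21.7, 26.9 and 22.7 TPM in wt. Its highest library was wt replicate 3, with trex replicate 1 next. Etv4 differed by -0.05 ± 0.10 on the log2 scale (95% interval -0.28 to 0.17, adjusted p = 0.747 in limma), and by -0.13 ± 0.08 without trex replicate 1 (adjusted p = 0.364).

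Etv1 (ENSMUSG00000004151, chromosome 12, 38779380 to 38870484), the weakest of the 10 genes, stood at 3.885, 2.85, 2.61 and 2.75 TPM in trex, against 2.63, 2.985, 3.67 and 2.96 TPM in wt. The groups overlapped. Etv1 differed by -0.02 ± 0.14 on the log2 scale (95% interval -0.34 to 0.31, adjusted p = 0.945 in limma), and by -0.11 ± 0.12 without trex replicate 1 (adjusted p = 0.581). The intervals of Etv4 and Etv5 exclude a change of 1 on the log2 scale in either direction, as do those of the other 8 genes.

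**Figure D2:**
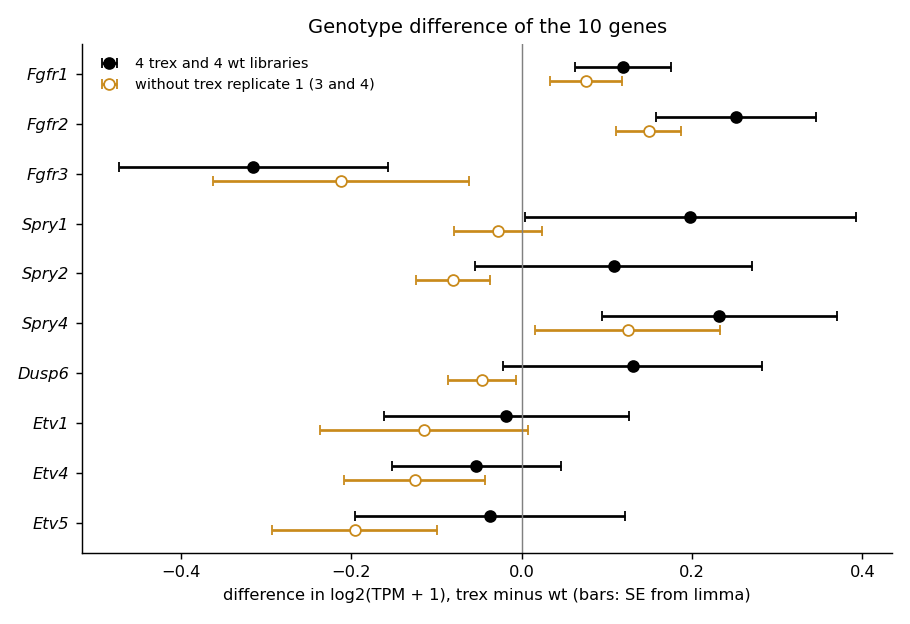
Difference in mean log2(TPM + 1), trex minus wt, for the 10 genes with all 8 libraries (filled black) and without trex replicate 1 (open orange); bars are SE from limma and the vertical line marks 0. Spry1, Spry2 and Dusp6 change sign when that library is left out, and Fgfr2 stays above 0.

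By level, TPM being scaled by gene length, the order in trex was Dusp6, Fgfr1, Spry2, Fgfr2, Spry1, Fgfr3, Etv5, Etv4, Spry4 and Etv1. In wt it differed only in that Fgfr3 stood above Spry1. In trex the ranges of neighbours overlapped from Fgfr1 down to Etv4. In wt the neighbours whose ranges overlapped were Fgfr2 and Fgfr3, Fgfr3 and Spry1, and Etv5 and Etv4. Means ran from 129.4 ± 35.6 TPM for Dusp6 to 3.02 ± 0.58 TPM for Etv1 in trex, and from 115.3 ± 4.19 TPM to 3.06 ± 0.44 TPM in wt. The coefficient of variation was larger in trex for 9 of the 10 genes, the exception being Fgfr3, and for 76.4% of all tested genes.

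Trex replicate 1 was the highest of the 8 libraries for 8 of the 10 genes, where the background is 38.2%, and the lowest for Fgfr3, where it is 23.1%. After median-of-ratios rescaling, quantile normalization or recomputing TPM it was the highest for 7. By Dixon's criterion it stood apart and high among the 4 trex values for 5 genes (Fgfr1, Fgfr2, Spry1, Spry2 and Dusp6), against 5.48% of tested genes. After median-of-ratios rescaling it did so for 3. The shares over all tested genes are given for the deposited scaling only. It stood apart and low for 0 of the 10 (1.46% of tested genes). Counting any trex library, 5 of the 10 genes had 1 set apart (9.39% of tested genes), and counting any wt library, 0 did (5.31%). Relative to the median of the other trex libraries it held 1.90 times as much Spry1, 1.67 times as much Spry2, 1.62 times as much Dusp6 and 1.56 times as much Etv5. The same ratio was 1.34 for Fgfr2, 1.13 for Fgfr1 and 0.695 for Fgfr3. On the log2 scale the rise of Spry1 was 0.91, and 3.88% of tested genes rose at least as far, while for Fgfr1 36.2% did. Mitochondrially encoded genes made up 2.6% of the TPM of trex replicate 1, against 4.5% to 7.1% in the other trex libraries and 6.7% to 8.0% in wt. TPM add up to the same total in every library. The same library held 13944 TPM of 16 low oxygen and glycolysis genes, against 6441 to 10927 TPM in the other trex libraries and 4478 to 4795 TPM in wt. In trex replicates 2, 3 and 4 those genes summed to 6441, 8762 and 10927 TPM. The summed level of Spry1, Spry2, Spry4 and Dusp6 in these was 213, 224 and 226 TPM, against 225.5 to 232 TPM in wt. Primitive erythroid markers (7 genes) summed to 3028 TPM in trex replicate 1, against 9199 to 15565 TPM in the other trex libraries and 7065 to 15766 TPM in wt, and neural crest markers (7 genes) to 288 TPM, against 203 to 223 TPM in the other trex libraries and 189 to 203 TPM in wt. The neural crest list includes Ets1, which is also counted below among the genes that respond to or act with ERK. Ets1 held 80.6 TPM in trex replicate 1, against 71.6 to 73.6 TPM in the other trex libraries and 66.75 to 69.1 TPM in wt. The part of these differences in the values of the 10 genes was not tested.

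**Figure D3:**
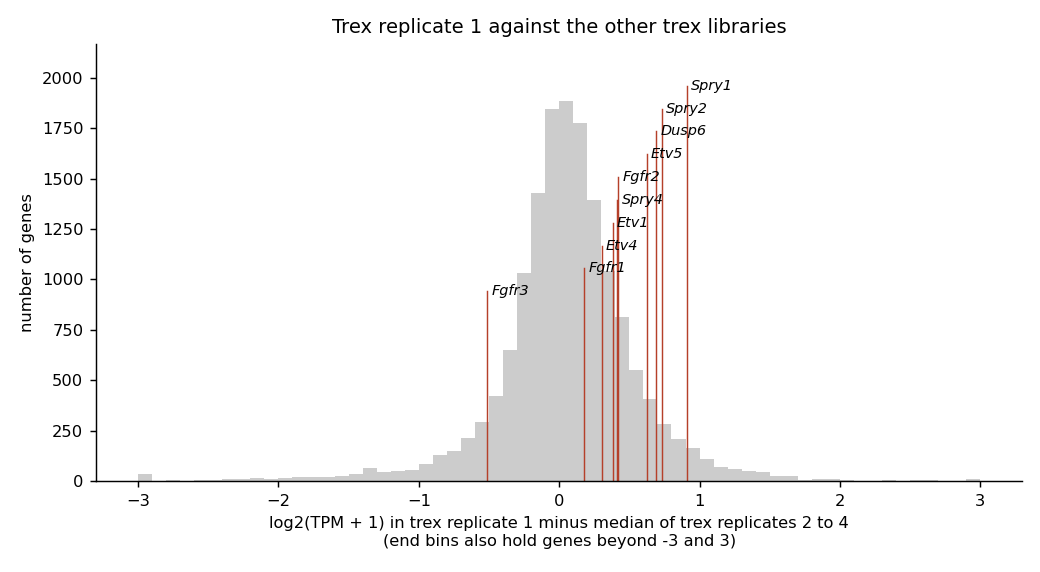
Grey bars count all 15717 tested genes by the difference in log2(TPM + 1) between trex replicate 1 and the median of trex replicates 2 to 4; red lines mark the 10 genes. Spry1 lies farthest to the right at 0.91 and Fgfr3 is the 1 gene on the left, at -0.51.

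The genes whose profiles over the 8 libraries lay closest to a member were found by the root mean square distance between log2(TPM + 1) profiles, each centred on its own mean. Etv1 and Etv4 were the closest pair among the 10 genes (0.053), followed by Spry2 and Dusp6 (0.060) and Spry1 and Spry2 (0.079). On the same measure Etv1 and Etv4 varied by 0.15 and 0.13 around their own means, and Spry2 and Dusp6 by 0.24 and 0.23. The distance is not scaled by this variation and is small for genes that vary little. Fgfr3 and Spry1 were the farthest pair (0.52). Over all tested genes other than predicted genes and pseudogenes, the nearest to Spry4 was Spred3 (0.056), another inhibitor of the ERK cascade, and the nearest to Etv5 was Il17rd (0.076), an inhibitor of FGF receptor signalling. The nearest to Dusp6 and to Spry2 was Pcmtd2 (0.023 and 0.053). The nearest to Fgfr1 was Copa (0.015), to Fgfr2 Baz2a (0.027), to Fgfr3 Cacnb1 (0.061), to Spry1 Sars (0.061) and to Etv4 Parp16 (0.039). Since 38.2% of tested genes were highest in trex replicate 1, a small distance only describes these 8 libraries.

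Genes upstream of the receptors differed in other ways. Of 22 FGF genes, 14 were tested, 2 rose, 1 fell and 11 were not called, with a median log2 difference of 0.01. Of all tested genes 4.94% were called higher and 3.77% lower. Summed over the 22 genes, the level was 251.9, 107.0, 105.0 and 107.3 TPM in trex, against 87.0, 82.8, 88.1 and 85.2 TPM in wt, with no overlap. The sum includes Fgf11, Fgf12, Fgf13 and Fgf14, whose products stay in the cell. Fgf15, the mouse counterpart of human FGF19, stood at 100.2, 32.2, 26.3 and 28.5 TPM in trex, against 15.9, 9.17, 12.55 and 11.8 TPM in wt (log2 difference 1.63 ± 0.39, adjusted p = 0.0398 in limma). Fgf3, a ligand gene of the hindbrain, otic region and pharynx, averaged 13.95 ± 7.50 TPM in trex and 3.94 ± 1.16 TPM in wt (adjusted p = 0.0222). Fgf6, a ligand gene of developing skeletal muscle, fell to 0.335 ± 0.243 TPM in trex, against 2.21 ± 0.24 TPM in wt (adjusted p = 0.00771). Fgf6 passed the filter on low values, a mean TPM of at least 1, only through its wt level, so a tested Fgf6 had to differ and its call is given as a description. Fgf8, a ligand gene of pharyngeal tissue and the caudal axis, stood at 43.7, 21.2, 19.7 and 16.5 TPM in trex, against 16.8, 17.25, 21.7 and 17.6 TPM in wt, and missed the threshold (log2 difference 0.35, adjusted p = 0.392; 0.06 without trex replicate 1). Fgf13, whose product stays in the cell, averaged 13.7 TPM in trex and 15.2 TPM in wt (0.37). Fgf15 and Fgf3 carried the higher sum in trex replicates 2 to 4. Without these 2 genes, a choice made after the values were seen, the other 20 summed to 126.5, 64.5, 68.8 and 68.5 TPM in trex, against 65.7, 69.75, 72.9 and 69.55 TPM in wt, and trex replicate 1 alone lay above the wt range. In trex replicates 2 to 4 the level summed over all 22 genes was 1.23 to 1.25 times the wt mean and that of the 20 genes 0.929 to 0.99 times, the summed Sprouty and Dusp6 level 0.932 to 0.991 times, and the summed Etv level 0.83 to 0.95 times. The call of Fgf15 was lost in 6 of 8 fits that left out 1 library (adjusted p up to 0.121), with log2 differences of 1.5 to 1.8 in them, and that of Fgf3 in 4 (up to 0.0778), with 1.38 to 1.61.

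**Figure D4:**
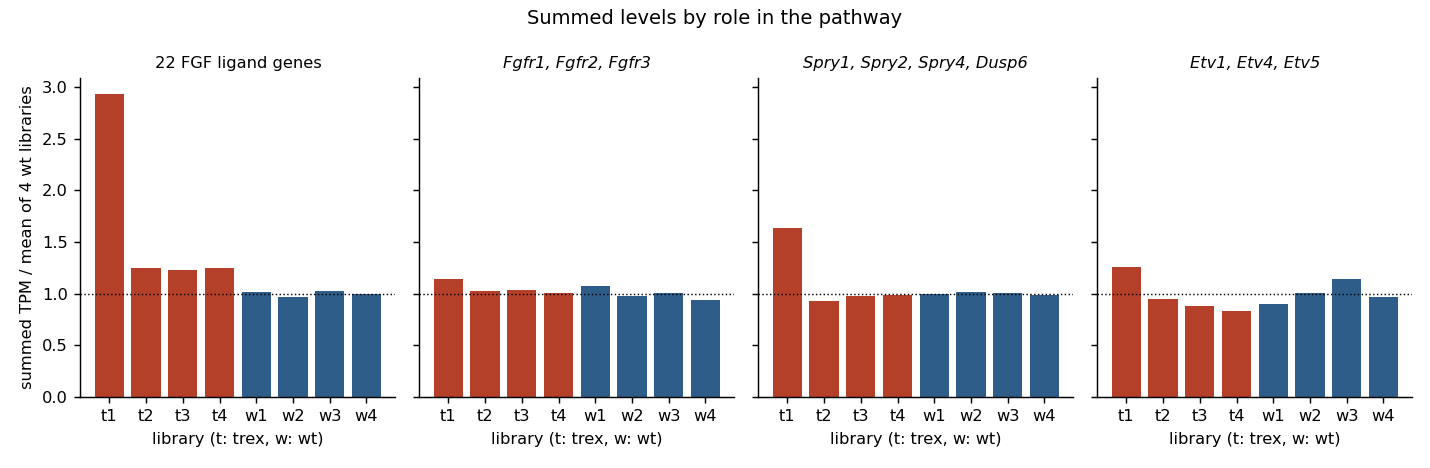
Summed TPM of the 22 FGF genes, the 3 receptors, the 4 Sprouty and Dusp6 genes and the 3 Etv genes in each library, divided by the mean of the 4 wt libraries (dotted line at 1); red bars are trex replicates 1 to 4 and blue bars wt replicates 1 to 4. The FGF sum is above 1.2 in every trex library, while the Sprouty and Dusp6 sum is above 1.1 in trex replicate 1 alone. Without Fgf3 and Fgf15 the FGF sum in trex replicates 2 to 4 is 0.929 to 0.99 times the wt mean. The FGF sum includes Fgf11, Fgf12, Fgf13 and Fgf14, whose products stay in the cell.

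Among co-receptors and heparan sulfate genes, every called gene rose. Of 22 genes 20 were tested, 5 rose, none fell and 15 were not called, with a median log2 difference of 0.07. Over all tested genes 4.94% were called higher and 3.77% lower. Flrt3, which encodes a membrane protein that binds FGF receptors, averaged 103.5 ± 19.2 TPM in trex and 59.75 ± 8.16 TPM in wt (adjusted p = 0.0149). Gpc3, a heparan sulfate carrier, averaged 1007 ± 176.5 TPM in trex and 656 ± 58.6 TPM in wt (adjusted p = 0.0233). Ugdh, which makes a sugar nucleotide for heparan sulfate, rose 1.49-fold (adjusted p = 0.0181). Hs6st2, which adds sulfate groups to heparan sulfate, rose 1.43-fold (0.0488), and Sulf1, which removes them, 1.66-fold (0.0484). The calls of Hs6st2 and Sulf1 were each lost in 6 of 8 fits without 1 library (adjusted p up to 0.132 and 0.127). Both were also lost with no filter, no variance trend or a pseudocount of 5. In the fits without 1 library the Gpc3 and Ugdh calls were each lost in 4 of 8 (adjusted p up to 0.0835 and 0.067). The Flrt3 call was lost in 1 of them (0.061). The most abundant uncalled genes were Sulf2, whose mean TPM was 211.1 in trex and 219.5 in wt (0.597), and Sdc1, whose mean TPM was 122.8 in trex and 130.3 in wt (0.349).

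Among 23 adaptors and kinases of the ERK cascade 4 rose, none fell and 19 were not called, with a median log2 difference of 0.11. The shares over all tested genes were 4.94% higher and 3.77% lower. Rps6ka1, a kinase activated by ERK, averaged 68.2 ± 4.54 TPM in trex and 51.5 ± 2.48 TPM in wt (adjusted p = 0.0104). Mapk3, which encodes ERK1, rose 1.24-fold (0.0337), the adaptor gene Shc1 1.39-fold (0.0358) and Map2k1, which encodes MEK1, 1.48-fold (0.0489). The Map2k1 call was lost in 7 of 8 fits without 1 library (adjusted p up to 0.127), and under pseudocounts of 0.1 and 5, no filter, no variance trend and the replicate block. The Mapk3 and Shc1 calls were each lost in 6 of those 8 fits (adjusted p up to 0.106 and 0.102). Both were also lost with no filter, no variance trend and the replicate block. Nras, which encodes a Ras protein, missed the threshold (0.0728), with a mean TPM of 181.4 in trex and 199.8 in wt.

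Of 14 other feedback inhibitors 1 fell and none rose, with a median log2 difference of 0.09, where 3.77% of all tested genes were called lower and 4.94% higher. Dusp14, a phosphatase of MAP kinases, averaged 5.31 ± 0.92 TPM in trex and 11.6 ± 0.83 TPM in wt (log2 difference -1.01 ± 0.12, adjusted p = 0.00463). Spred1, which restrains Ras signalling, stood at 145.5, 96.3, 94.5 and 90.1 TPM in trex, against 82.95, 84.9, 84.9 and 88.9 TPM in wt, and missed the threshold (log2 difference 0.29, adjusted p = 0.200; 0.13 without trex replicate 1). Dusp9 went the other way in trex replicate 1, at 62.5 TPM there and 130 to 158 TPM in the other trex libraries, against 120 to 160 TPM in wt.

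Of 19 other genes that respond to or act with ERK, 17 were tested, 3 rose and none fell, with a median log2 difference of 0.22. Over all tested genes 4.94% were called higher and 3.77% lower. The ETS factor gene Ets2 averaged 56.7 ± 4.71 TPM in trex and 36.3 ± 3.25 TPM in wt (adjusted p = 0.00678). The ETS factor gene Elk3 rose 1.16-fold (0.0322) and was not called after median-of-ratios rescaling, quantile normalization or recomputing TPM. The Elk3 call was also lost in 6 of 8 fits without 1 library (up to 0.1), and with no variance trend, the replicate block or voom. Ier3, a gene induced by growth factors and stress, stood at 106.8, 7.99, 62.5 and 96.98 TPM in trex, against 4.72 to 5.48 TPM in wt (adjusted p = 0.0353). The Ier3 call was lost in 7 of 8 fits without 1 library (up to 0.104), and with no filter, no variance trend or voom. Ccnd1, with a mean TPM of 309.9 in trex and 264.3 in wt (0.087), and Ier2, with 150.6 in trex and 157.0 in wt (0.606), were not called. Over these 5 lists 16 of 88 tested genes were called (18.2%), against 8.71% of all tested genes. The lists were chosen with earlier results of these data known, and the 16 include Fgf6, which had to differ. The share is therefore given as a description. Trex replicate 1 was the highest library for 54.5% of the 88, against 38.2% of all tested genes.

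**Figure D5:**
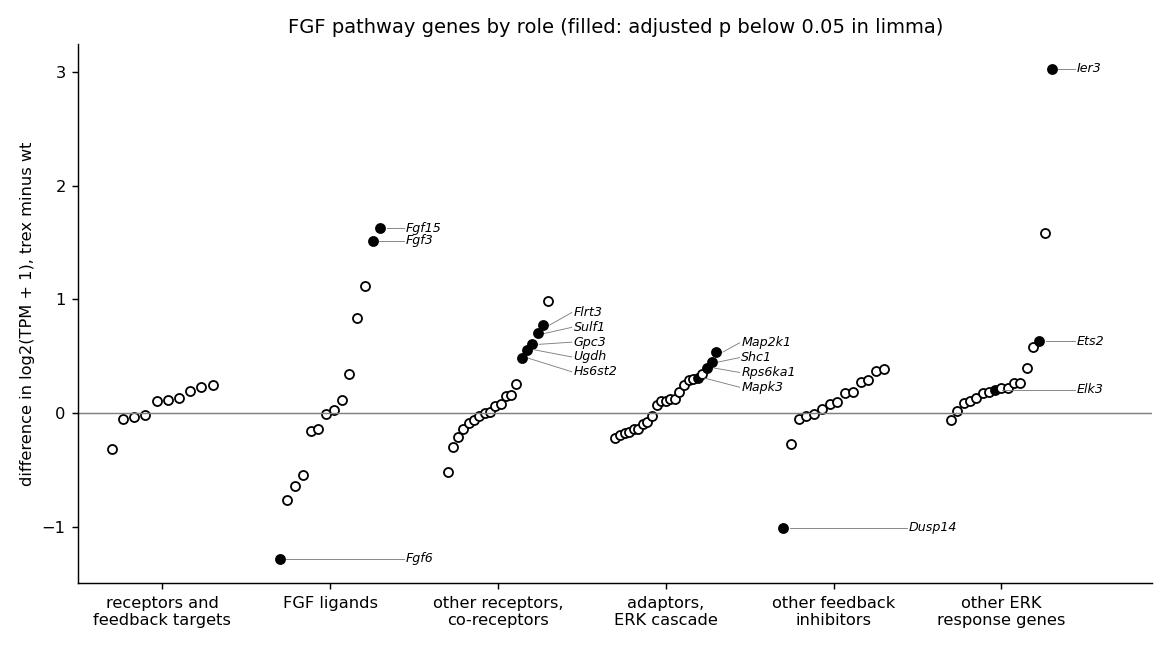
Difference in log2(TPM + 1), trex minus wt, of the 10 receptors and feedback targets and of the 88 tested genes of 5 pathway lists; each point is a gene, and filled points with names have an adjusted p below 0.05 in limma. The 10 genes lie between -0.31 and 0.25 with no filled point, and 14 of the 16 filled points lie above 0. Of all called genes 777 of 1369 were higher in trex, and 633 of 1372 after quantile normalization.

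Most of those calls rested on the full set of libraries. Leaving out trex replicate 1 kept 13 of the 16, trex replicate 2 kept 16, trex replicate 3 kept 7 and trex replicate 4 kept 6. Leaving out wt replicates 1, 2, 3 or 4 kept 7, 4, 5 or 7. Rps6ka1, Dusp14 and Ets2 were called in each of those 8 fits, as was Fgf6 with the limit given above. Map2k1 and Ier3 lost their calls in 7 of the 8. In the fits that lost a call, the log2 difference was 0.78 to 1.1 times that with all libraries, over the 12 genes concerned. Y-linked transcripts were present in wt replicates 2 and 3 alone, and with sex as a covariate 0 of the 16 remained, where 0.248% of tested genes were called. The log2 differences of the 16 genes in that fit were 0.823 to 1.07 times those without the covariate.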

How the data were processed

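RNA was measured in 8 samples with a stranded kit, per the labels. The authors deposited TPM, 1 column for each sample. The submitters' processing notes name CASAVA 1.8.2, STAR and mm10. The counting tool, its strand setting, the annotation and the treatment of multiply mapped reads: not given in the sources used here. Symbols, positions and exonic lengths came from GENCODE M21 (same assembly), which matched 55240 of 55421 identifiers. The table had 0 columns without a sample.

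TPM times exonic length gave whole reads within 0.001 read for 98.7% to 98.9% of values up to 200 reads, which gave the depth; counting errors cover counting only. Every pair of libraries differed by more than sampling noise (smallest chi-square per gene 4.97). Genes with a mean TPM of at least 1 (15717) were tested with limma 3.58.1 in R 4.3.3 on log2(TPM + 1) with a mean-variance trend, genotype as the only term, two-sided, with Benjamini-Hochberg adjustment; this scale understates changes of weak genes. Exact tests over the 70 divisions used scipy 1.17.1. Folds are ratios of group mean TPM, and errors are SD unless SE is named.

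Fgfr1, Fgfr3, Spry1 and Spry4 overlap genes on the other strand. The Fgfr2 annotation spans 2960900 bases and overlaps 69 genes, 36 on the same strand and 33 on the opposite one. These spans include introns, and whether exons overlap was not examined. Where exons on opposite strands do overlap, their reads cannot be told apart without a stated strand setting.

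The 10 genes and all lists were chosen with earlier results of these data known. From each of 5 pathway lists the text names up to 6 called genes with the smallest p and may give the 2 uncalled genes with the highest level; for each of the 10 genes the nearest by profile distance is named. A gene that this rule names is not reported here. Fgfr4 and the shares and ratios of receptors were chosen after their values were seen. Alternatives were other pseudocounts, filters, scalings, variance models, array weights, a replicate block, sex as a covariate, voom on recovered reads and leaving out each library.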

Additional observations from a re-analysis of the deposited data

Results flagged for a closer look

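Dixon's criterion, applied to 108 sets of 4 values, found 13 with a library far from the rest, where about 1 in 20 would be found by chance. Over all tested genes the share was 9.39% in trex and 5.31% in wt, and the sums contain genes counted singly. Trex replicate 1 was that library in 11.

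Among the 10 genes, trex replicate 1 held 96.1 TPM of Fgfr1, with 84.45 to 86.2 in trex replicates 2 to 4, and 83.4 TPM of Fgfr2, with 61.55 to 64.1 in those. It held 78.03 TPM of Spry1 (others 38.6 to 44.25), 102.8 TPM of Spry2 (58.2 to 61.9) and 182.8 TPM of Dusp6 (108.4 to 113.7). The summed level of Spry1, Spry2, Spry4 and Dusp6 was 374.1 TPM there and 212.8 to 226.3 TPM in the others.

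Elsewhere in the pathway the same library held 25.2 TPM of Fgf3 (others 9.97 to 10.3), 100.2 TPM of Fgf15 (26.3 to 32.2), 132.2 TPM of Flrt3 (91.7 to 95.1) and 145.5 TPM of Spred1 (90.1 to 96.3), and its 22 FGF genes summed to 251.9 TPM (105.0 to 107.3). In wt, replicate 3 held 21.7 TPM of Fgf8 (others 16.8 to 17.6), and the neural crest markers summed to 202.8 TPM in replicate 1 (189.1 to 190.3). None of the 10 genes had a wt library set apart in this way.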

How the results depend on the processing

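No alternative called any of the 10 genes lower. Fgfr2 was called higher with array weights, which gave 1 of the 10 called, and leaving out single libraries gave 0 to 1. The exact test reached its smallest p for 1 gene, not 2, after median-of-ratios rescaling, quantile normalization or recomputing TPM with globin, mitochondrial and sex chromosome genes removed, and trex replicate 1 stood apart and high for 3 genes, not 5, after median-of-ratios rescaling.

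The count of all genes called, 1369, was 694 with no filter, 5524 with array weights, 687 with the replicate block, 39 with sex as a covariate and 201 to 2911 without single libraries. The 777 higher and 592 lower genes became 633 and 739 after quantile normalization. The pathway count of 16 became 9 with no filter, 8 without a variance trend, 45 with array weights, 10 with the replicate block, 0 with sex as a covariate and 4 to 27 without single libraries. The labels name no pairing behind the replicate numbers, so the block is given as an alternative only. Same-numbered deviations correlated at 0.162, -0.0225, -0.00449 and 0.252, and 2 of 4 trex libraries correlated best with their own number. Liver marker sums were lower in replicates 1 and 2 than in replicates 3 and 4 of both groups. Whether libraries of 1 number share a factor was not tested. The block ended no call and added none among the 10 genes.

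Signs turned where differences were small. With array weights they were -0.0055 for Spry1, -0.032 for Spry2, -0.031 for Dusp6 and 0.075 for Dusp9, and with sex as a covariate 0.075 for Etv1, 0.0068 for Etv4, 0.084 for Etv5 and 0.014 for Ier2. Without single libraries they ranged from -0.028 to 0.30 for Spry1, -0.081 to 0.19 for Spry2, -0.046 to 0.20 for Dusp6, -0.11 to 0.051 for Etv1, -0.13 to 0.017 for Etv4, -0.20 to 0.062 for Etv5, -0.12 to 0.0016 for Sulf2 and -0.41 to 0.036 for Dusp9. For Spry1, Spry2, Dusp6 and Dusp9 the sign turned only without trex replicate 1 and with array weights, which give that library the smallest weight. Why that library differs, and the cause of the other turns, was not tested. Etv1 and Fgf6 have no value under the filter at a mean TPM of 5.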
